A study of Mus musculus with 6 samples.

Results

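Integrins are the receptors through which fibroblasts hold on to the extracellular matrix. Each is a pair of one alpha and one beta subunit, and the 10 subunits described here are Itga3, Itga4, Itga5, Itga6, Itga8, Itga9, Itgav, Itgb1, Itgb3 and Itgb5. They were taken from the arrays by symbol, as every probe set (the oligonucleotides that together measure a transcript) annotated to 1 of these genes and to no other, which gave 10 of the 18193 genes that have such a probe set, and 36 of the 45037 probe sets that are not array controls. They are a chosen part of the integrin family, and 16 other subunits were listed apart from them. The rule itself used symbols only, but the members were chosen with earlier results of these data known.

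Total RNA came from primary fibroblasts of mouse embryos at 12.5 days post coitum, grown in medium with fetal calf serum. The embryos were offspring of crosses between parents heterozygous for a deletion of exon 2 of Cas (p130Cas, gene Bcar1), and 5 of the 6 arrays carry a strain label, B6, which wild type 1 lacks. The groups were 2 homozygous embryos (exon 2 deleted on both alleles), 2 heterozygous embryos (one deleted allele and one intact) and 2 wild-type embryos (both alleles intact), with 1 array per embryo and 2 µg of RNA per labelling. Each culture was made from what remained of an embryo after the head and inner organs had been removed for genotyping, so other cell types of the trunk and limbs can be present. The deletion was constitutive in these embryos, and 2 arrays per genotype limit the precision of every value.

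The beta tail of an integrin recruits talin and kindlin inside the cell, and the resulting adhesion activates focal adhesion kinase and Src, which phosphorylate Cas. Receptors that contain alpha v or the pair alpha 5 with beta 1 bind the arginine-glycine-aspartate motif of fibronectin, vitronectin and latent TGF-beta, the alpha 3 and alpha 6 subunits make laminin receptors, and alpha 4 and alpha 9 bind VCAM-1, tenascin and an alternatively spliced part of fibronectin. Beta 1 pairs with most alpha subunits of fibroblasts, while beta 3 and beta 5 pair with alpha v. Cas lies downstream of these receptors, so the subunits bear on whether cells with deleted exon 2 carry the same set of matrix receptors.

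All 10 subunits were measured above background by at least 1 probe set. Levels are log2(intensity + 1.78) after quantile normalization, and the background level was 4.13, the 95th percentile of 81 probe sets of olfactory, vomeronasal and bitter taste receptor genes, which fibroblasts are not known to use. A stricter level of 4.38, their 99th percentile, was also passed by all 10 genes. Of the 36 probe sets, 22 lay above both levels and in the upper 50% of all probe sets (means of 4.80 and higher), where differences were tested, and the other 14 lay between 2.26 and 4.04. Itgb5 had 4 of 4 probe sets in the tested range, Itga6 and Itga8 2 of 2 each, Itgb1 and Itgav 3 of 6 and 3 of 5, Itga3 and Itga9 2 of 3 each, Itga5 2 of 4, Itgb3 1 of 2 and Itga4 1 of 5. All 10 genes had a tested probe set, as did 11373 of all 18193 genes that have a probe set of 1 symbol. Probe sets differ in sequence and in how strongly they bind, so their levels do not rank the RNA amounts of different genes. A gene is represented below by its probe set with the highest mean, called its leading probe set.

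**Figure D1:**
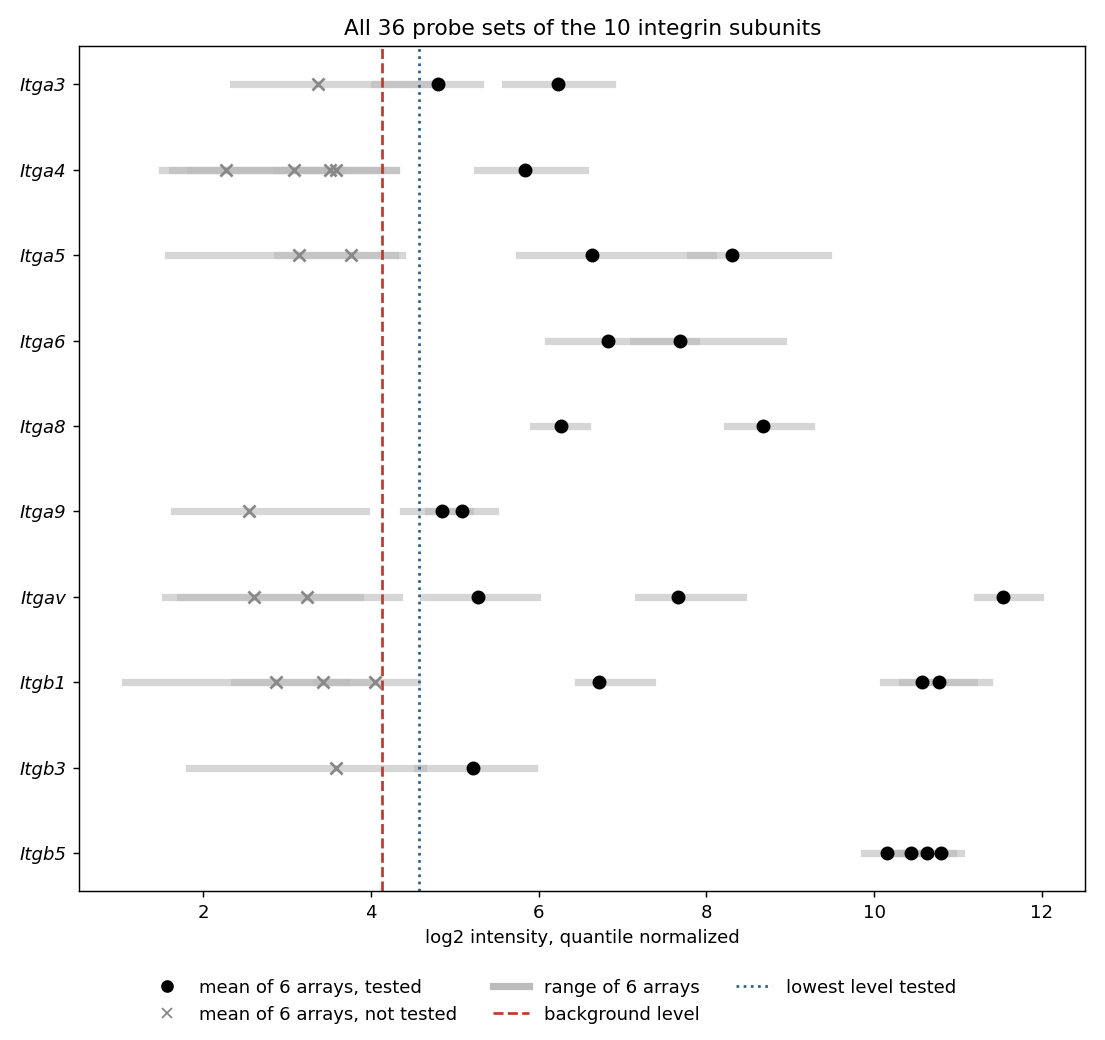
Mean log2 intensity over the 6 arrays (horizontal axis) of all 36 probe sets, by gene, with filled circles for the 22 tested probe sets, crosses for the 14 that were not tested and grey bars for the range of the 6 arrays. Every gene has at least 1 probe set to the right of the dashed background level (4.13), and Itga6, Itga8 and Itgb5 have no probe set below it.

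The expression of sex-linked genes differed between the embryos, and the labels give no sex. The Y-linked gene Eif2s3y lay at 8.76 and 8.61 in homozygotes, 1.24 and 1.70 in heterozygotes and 3.61 and 8.37 in wild type, so genotype and sex-linked expression cannot be told apart between homozygotes and heterozygotes. The 12 fibroblast markers were all above background, with summed intensities of 77985 and 70636 in homozygotes, 78176 and 77788 in heterozygotes and 55248 and 69093 in wild type, the lowest being wild type 1. Macrophage markers were present as well, with 17 of 18 above background and Aif1 below it. Their sums were 18609 and 8353 in homozygotes, 6299 and 5586 in heterozygotes and 3425 and 8173 in wild type. All 16 tested macrophage markers were higher in homozygotes than the equally weighted mean of the other genotypes (median 1.27, 0 called by limma). By genotype means they were also higher than in each other genotype alone. Endothelial, epithelial and skeletal muscle markers were above background for 4 of 8, 4 of 7 and 1 of 7 genes, and neural and glial markers for 5 of 5 measured. The neural and glial sums were 456 and 484 in homozygotes, 1320 and 1952 in heterozygotes and 2107 and 1825 in wild type. All 4 tested markers of that list were lower in homozygotes than the equally weighted mean of the other genotypes (median -1.25, 0 called by limma). All 4 were also lower than in wild type alone, while against heterozygotes alone 3 were lower and 1 higher. The epithelial sums were 172 and 125 in homozygotes, 141 and 149 in heterozygotes and 231 and 149 in wild type. In such mixed cultures fewer cells of a type and less RNA per cell cannot be told apart. Bcar1 itself lay at 8.08 and 8.43 in homozygotes, 8.19 and 8.32 in heterozygotes and 9.37 and 8.42 in wild type. The labels and files used here do not place its probes in the gene, so these levels are no check of the deletion.

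Itgb1, the beta subunit shared by most fibroblast integrins, lay at 10.60 and 10.82 in homozygotes, 10.33 and 10.96 in heterozygotes and 11.37 and 10.59 in wild type (log2 intensity). Wild type 1 was the highest array, heterozygote 1 the lowest, and the 3 genotypes overlapped. The deposited linear intensities behind these levels were 1414 and 1813 in homozygotes, 1223 and 2152 in heterozygotes and 2957 and 1461 in wild type. Homozygotes differed from both other genotypes, each given equal weight, by -0.10 (SE 0.31, 95% interval -0.84 to 0.64), and the other tested Itgb1 probe sets gave -0.04 and -0.21. None of the 3 passed (limma adjusted p = 1 for each).

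Itgav, the alpha subunit that pairs with beta 1, beta 3 and beta 5, had the profile closest to that of Itgb1 among the members. It lay at 11.34 and 11.47 in homozygotes, 11.23 and 11.79 in heterozygotes and 11.97 and 11.38 in wild type, again highest in wild type 1 and lowest in heterozygote 1. After each profile was centred on its own mean, the arrays of Itgav and Itgb1 lay on average 0.09 log2 units apart, the smallest distance among the pairs of members. The difference of homozygotes from both other genotypes was -0.19 (SE 0.27, 95% interval -0.84 to 0.46), with 0.03 and -0.23 from the other tested probe sets.

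Itgb5, the beta subunit of a vitronectin receptor with alpha v, did not follow that profile. Its leading probe set lay at 10.73 and 10.73 in homozygotes, 10.98 and 11.01 in heterozygotes and 10.31 and 11.04 in wild type, so that wild type 1 was the lowest array and wild type 2 the highest. Both homozygote arrays lay below both heterozygote arrays, while the wild-type arrays lay on either side of them. In another Itgb5 probe set these 2 genotypes overlapped, at 10.16 and 10.53 in homozygotes and 10.64 and 10.49 in heterozygotes. The remaining Itgb5 probe sets kept the order of the leading one. Homozygotes differed from both other genotypes by -0.10 (SE 0.25, 95% interval -0.71 to 0.50), and the other 3 probe sets gave -0.21, -0.13 and -0.18. Against heterozygotes alone the leading probe set differed by -0.27 (SE 0.29, limma adjusted p = 1). The mean distance of its centred profile from that of Itgav was 0.33, and from Itga8 and Itga9 it was 0.24 and 0.23.

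The promoters of Itgb1 and Itgav, the closest pair, and of Itgb5, which ran the other way in wild type 1, are shown for comparison. Each covers 250 bases before to 50 bases from the annotated start of the gene in the RefSeq annotation of GRCm38.p6. It is given 5′ to 3′ on the gene's own strand. Capitals mark matches on either strand to GGGCGG (the GC box bound by Sp1), GGAATG (bound by TEAD factors) or TGANTCA. The AP-1 site is the form of TGANTCA with C or G at N, so the search was looser than that site. They lie at chr8:128685404-128685703 (Itgb1, plus strand), chr2:83724147-83724446 (Itgav, plus strand) and chr16:33829415-33829714 (Itgb5, plus strand).
Itgb1: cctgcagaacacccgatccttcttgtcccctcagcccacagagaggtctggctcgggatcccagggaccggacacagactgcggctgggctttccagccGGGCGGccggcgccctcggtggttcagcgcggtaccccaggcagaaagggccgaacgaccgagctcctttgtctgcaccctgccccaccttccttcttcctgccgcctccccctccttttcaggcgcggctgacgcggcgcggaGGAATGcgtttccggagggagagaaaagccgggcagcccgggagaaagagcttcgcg
Itgav: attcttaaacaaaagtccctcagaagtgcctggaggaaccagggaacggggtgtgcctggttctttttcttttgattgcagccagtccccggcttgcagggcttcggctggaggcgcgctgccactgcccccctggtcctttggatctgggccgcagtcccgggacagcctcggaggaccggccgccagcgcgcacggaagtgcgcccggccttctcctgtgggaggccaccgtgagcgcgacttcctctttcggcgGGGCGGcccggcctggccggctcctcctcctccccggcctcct
Itgb5: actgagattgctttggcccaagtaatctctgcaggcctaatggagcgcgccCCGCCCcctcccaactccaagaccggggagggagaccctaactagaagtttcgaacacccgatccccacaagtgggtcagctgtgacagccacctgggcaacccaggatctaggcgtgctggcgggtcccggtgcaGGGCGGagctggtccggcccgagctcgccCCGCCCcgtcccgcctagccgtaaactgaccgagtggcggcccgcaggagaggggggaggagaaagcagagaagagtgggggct
The share of G and C was 67.3% in Itgb1, 67.3% in Itgav and 65.7% in Itgb5, against a median of 52.7% over the 32851 promoters of the same length. GGGCGG matched once in Itgb1 and once in Itgav and 3 times in Itgb5 and GGAATG once in Itgb1, where the match begins 7 bases before the start. Promoters of 8 members were matched, 9 promoters in all because Itga3 has 2 annotated starts. Of these, 7 held GGGCGG, which 35.7% of all promoters hold, 1 held GGAATG (14.7% of all) and 2 held TGANTCA (Itga9 and the second start of Itga3, 7.8% of all). The match of Itga9 reads TGACTCA, and that of Itga3 reads TGAATCA, with A at N. These searched motifs do not overlap in the printed promoters. The matches describe the letters only.

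Itga5 makes the classical fibronectin receptor with beta 1. Its leading probe set lay at 7.80 and 8.08 in homozygotes, 8.02 and 8.45 in heterozygotes and 9.45 and 8.03 in wild type. Wild type 1 stood alone, at a deposited intensity of 753 against 236 in wild type 2, and the other 5 arrays had deposited intensities between 223 and 402. The difference of homozygotes from both other genotypes was -0.55 (SE 0.41, 95% interval -1.53 to 0.44, limma adjusted p = 1), the widest departure among the 10 leading probe sets, and it was -0.19 without wild type 1. A second probe set gave -0.23. It lay at 6.28 and 6.68 in homozygotes, 5.77 and 6.17 in heterozygotes and 8.08 and 6.82 in wild type. There heterozygotes lay below wild type without overlap, with a difference of -1.48 (SE 0.44, limma adjusted p = 0.838), which was -0.85 without wild type 1 and -2.11 without wild type 2.

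Itga8, which pairs with beta 1 to bind nephronectin and is expressed in mesenchyme, lay at 8.42 and 9.25 in homozygotes, 8.65 and 8.78 in heterozygotes and 8.25 and 8.67 in wild type. Homozygote 2 was the highest array and wild type 1 the lowest. The difference was 0.25 (SE 0.29, 95% interval -0.45 to 0.95), and the second probe set gave 0.02. Itgb3, the partner of alpha v in the receptor named for vitronectin, lay at 5.94 and 4.85 in homozygotes, 5.34 and 5.27 in heterozygotes and 5.36 and 4.54 in wild type. Homozygote 1 was its highest array, the homozygotes spanned both other genotypes except wild type 2, and the difference was 0.26 (SE 0.38, 95% interval -0.65 to 1.18).

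Among the laminin receptor subunits, Itga6 had the largest range of any leading probe set over the 6 arrays, 1.79 log2 units. It lay at 7.58 and 7.48 in homozygotes, 7.12 and 7.60 in heterozygotes and 8.91 and 7.43 in wild type. The arrays of homozygotes were 0.10 apart and those of wild type 1.48 apart. The difference was -0.24 (SE 0.42, 95% interval -1.25 to 0.78), it was 0.13 without wild type 1, and the second probe set gave 0.12. Itga3 lay at 5.71 and 6.51 in homozygotes, 5.60 and 6.28 in heterozygotes and 6.87 and 6.41 in wild type, with a difference of -0.18 (SE 0.33, 95% interval -0.98 to 0.62).

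The second Itga3 probe set lay at 4.67 and 4.03 in homozygotes, 4.63 and 4.89 in heterozygotes and 5.30 and 5.29 in wild type. Both homozygote arrays were below both wild-type arrays, and homozygote 1 lay within the range of the heterozygotes. Its homozygote mean of 4.35 lay below the lowest mean tested (4.57) and homozygote 2 below background, so it passed the filter through the other genotypes and is given as a description. This probe set differed by -0.68 (SE 0.24, unadjusted p = 0.0301, limma adjusted p = 1), and by -0.36 without homozygote 2. The 95% interval for this difference, -1.27 to -0.09, includes the value of the leading probe set.

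Itga4 and Itga9 are related subunits that leukocytes as well as mesenchymal cells use. Itga4 lay at 6.55 and 5.54 in homozygotes, 5.27 and 5.93 in heterozygotes and 6.22 and 5.50 in wild type, with a difference of 0.32 (SE 0.39, 95% interval -0.62 to 1.25). Homozygote 1, its highest array, also had the highest summed macrophage markers, but wild type 1, its second highest, had the lowest sum. The part of macrophages in this value was not tested. Its other 4 probe sets lay below the background level on average.

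Itga9 lay at 5.29 and 4.92 in homozygotes, 4.68 and 5.48 in heterozygotes and 4.83 and 5.32 in wild type, with a difference of 0.03 (SE 0.30, 95% interval -0.71 to 0.76). Its genotype means spanned 0.03 log2 units, the smallest span of the 10 leading probe sets. The second tested probe set of Itga9 lay at 4.38 and 4.57 in homozygotes, 4.96 and 5.14 in heterozygotes and 4.86 and 5.18 in wild type. Both homozygote arrays lay below the other 4, with a difference of -0.56 (SE 0.20, unadjusted p = 0.0315, limma adjusted p = 1). It was the only 1 of 22 tested member probe sets with that order, which 4.02% of all 22519 tested probe sets showed, and 0 of 22 showed the opposite order, against 3.27% of all. Both homozygote arrays and their mean of 4.47 lay below the lowest mean tested, so this probe set too passed the filter through the other genotypes.

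**Figure D2:**
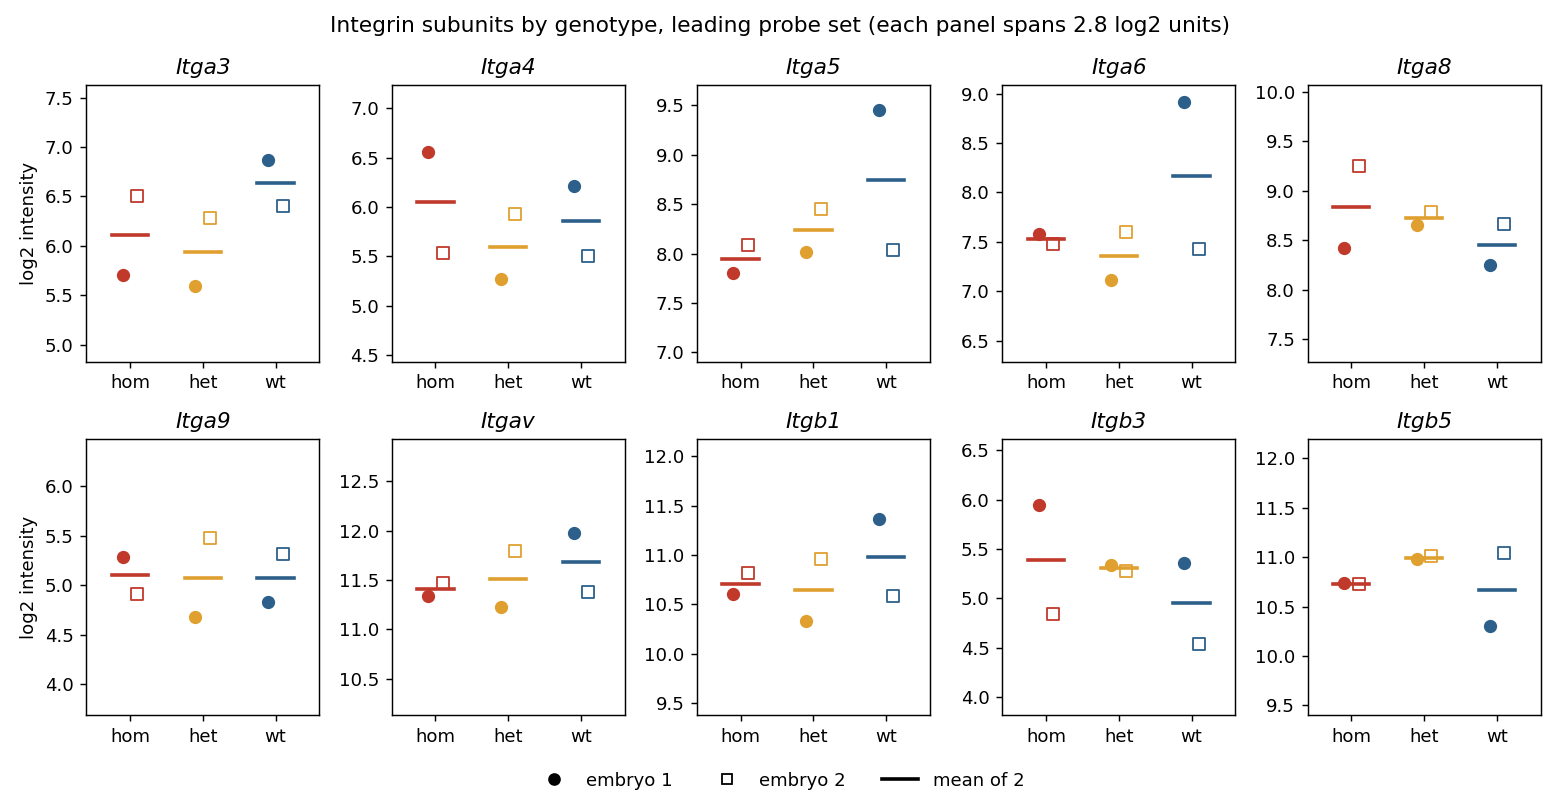
Log2 intensity (vertical axis, each panel spanning the same number of log2 units) of the leading probe set of each subunit in homozygotes (hom), heterozygotes (het) and wild type (wt), with a filled circle for embryo 1, an open square for embryo 2 and a line for the mean of 2. Wild type 1 is the highest array for Itga3, Itga5, Itga6, Itgav and Itgb1, and the lowest for Itga8 and Itgb5.

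Gaps between arrays of one genotype were set against those between genotype means. The gap between the homozygote arrays was larger than the largest gap between genotype means for 5 of 10 genes (51.5% of the 11373 genes with a tested probe set) and that between the heterozygote arrays for 4 of 10 (44.3% of all). The gap between the wild-type arrays was larger than the largest gap between genotype means for 9 of 10 genes, all but Itga3, and this held for 52.2% of all. Wild type 1 was the highest array for 5 of 10 members, against 24.3% of all genes, and the lowest for 2 of 10, against 26.6%. The 5 genes highest in wild type 1 were Itga3, Itga5, Itga6, Itgav and Itgb1, and all 12 of their tested probe sets had wild type 1 as the highest array. Their leading probe sets do so by that choice, and the others measure the same genes on the same arrays. Heterozygote 1 was the lowest array for 6 of 10 members, against 16.4% of all genes. Wild type 1, the array with no strain label, also had the lowest fibroblast and macrophage marker sums and the highest neural and glial, epithelial and skeletal muscle sums (97.1 for muscle, against 53.0 to 84.0 in the other arrays), and its Eif2s3y level differed from that of wild type 2. Whether the makeup of that culture accounts for its integrin levels was not tested.

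**Figure D3:**
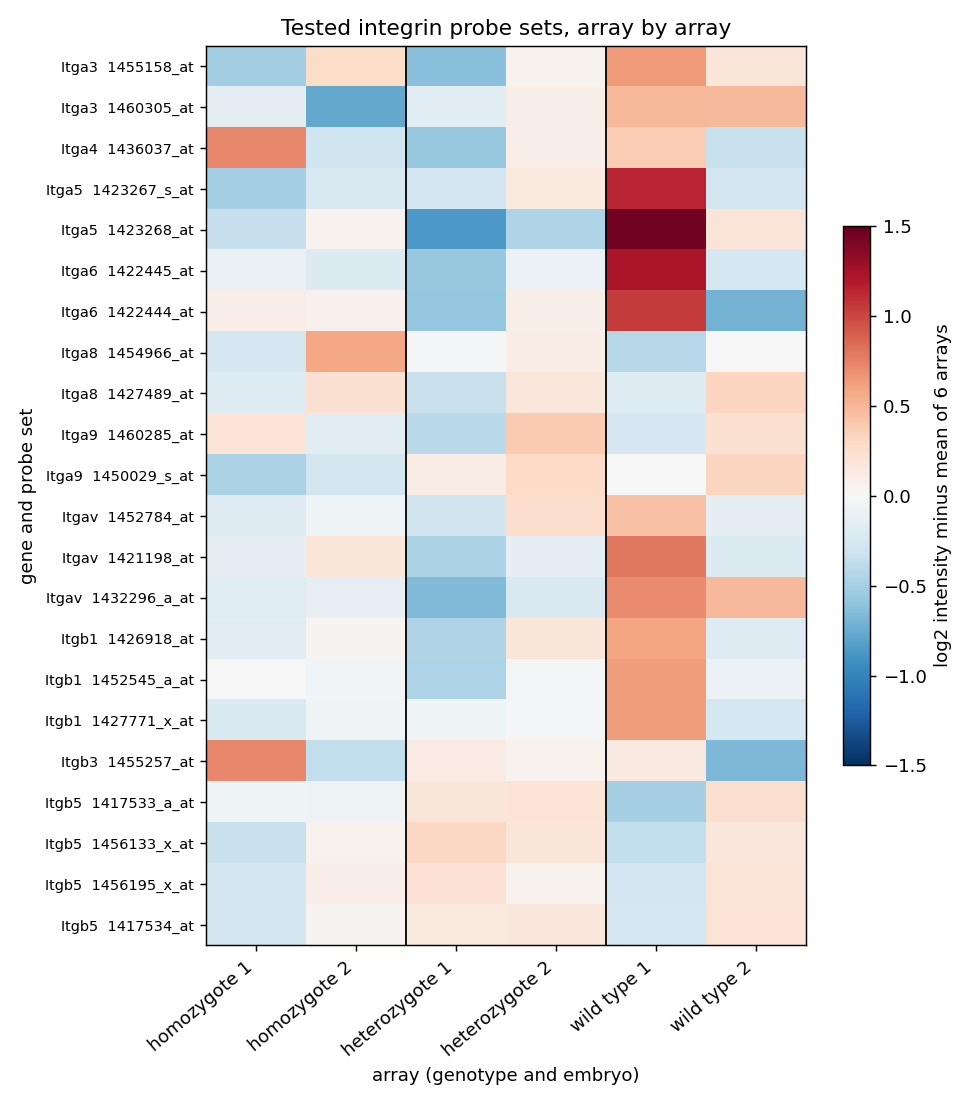
Log2 intensity minus the mean of the 6 arrays (colour) for the 22 tested probe sets, 1 per line, in the 6 arrays, with vertical lines between genotypes. The 12 probe sets of Itga3, Itga5, Itga6, Itgav and Itgb1, genes named for a leading probe set highest in wild type 1, are reddest there. In that array 3 of the 4 Itgb5 probe sets have their lowest value.

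The series was designed to set homozygous cells against both other genotypes. In that comparison limma called 0 of 22 member probe sets and 0 of 22519 probe sets in all (0% at an adjusted p under 0.05). At an unadjusted p under 0.05 there were 2 member probe sets, the second ones of Itga3 and Itga9 and both lower in homozygotes, against 2.49% of all tested probe sets in either direction. Since both passed the filter only through the other genotypes, nothing is read from their direction, and without the filter their unadjusted p-values in limma were 0.0635 and 0.0731. With any 1 array left out the count was 0 or 1. Of the 22, 7 were higher and 15 lower, with a median of -0.15. With 1 array left out the split ran between 3 higher and 19 lower without heterozygote 1 and 10 higher and 12 lower without wild type 1, and the median was -0.05 without wild type 1, -0.07 without heterozygote 2, -0.08 without homozygote 1, -0.23 without homozygote 2 and -0.25 without wild type 2. Over all tested probe sets 11099 were higher and the median was -0.0039. By gene, 4 leading probe sets were higher in homozygotes (Itga4, Itga8, Itga9 and Itgb3) and 6 lower. The intervals leave room for differences in either direction. The narrowest among the leading probe sets, that of Itgb5, reached -0.71, and the widest, that of Itga6, reached from -1.25 to 0.78.

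**Figure D4:**
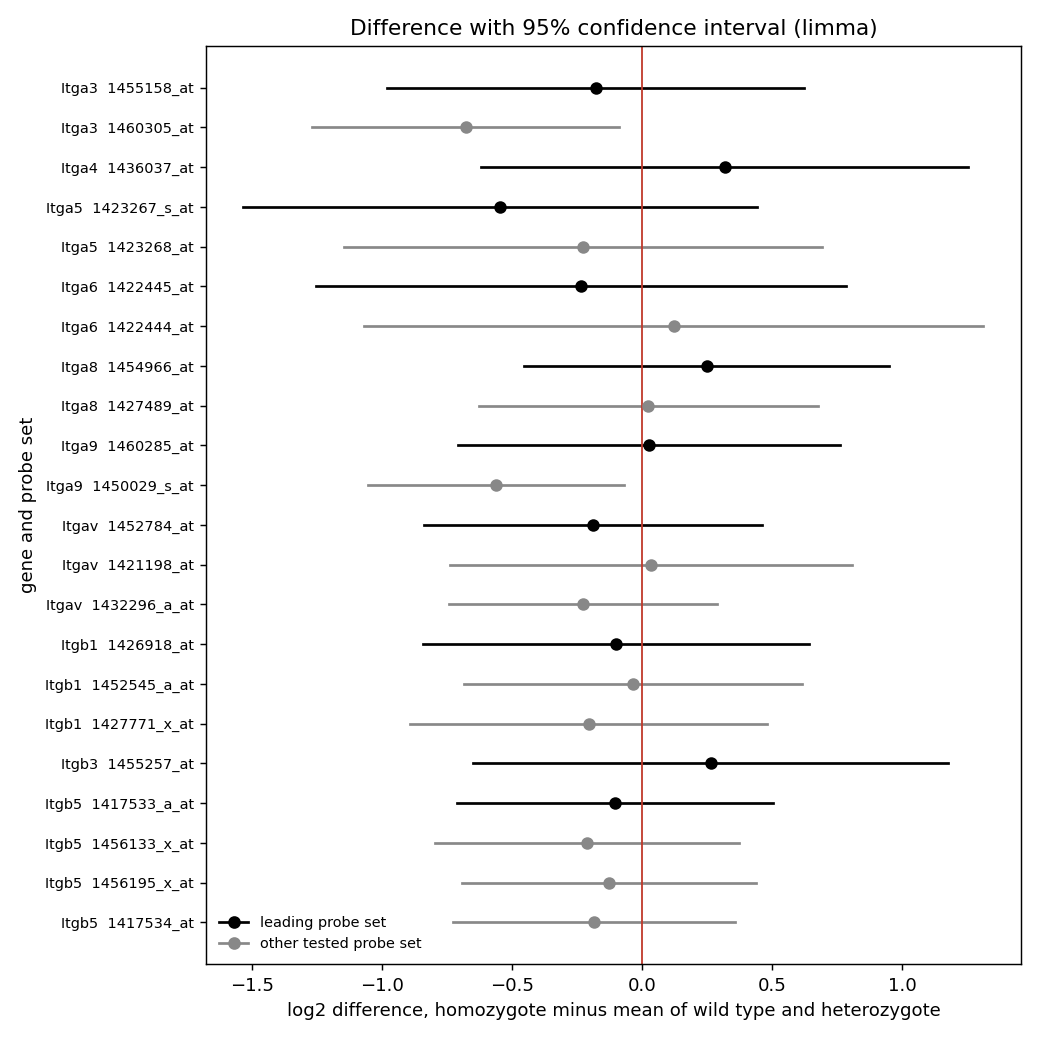
Log2 difference of homozygotes from heterozygotes and wild type, equally weighted (horizontal axis) with its 95% interval from limma, for the 22 tested probe sets, black for leading and grey for other probe sets. The intervals of all but the second probe sets of Itga3 (-1.27 to -0.09) and Itga9 (-1.05 to -0.07) include 0, and neither passed after adjustment.

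Between single genotypes the test again called 0 of 22 member probe sets, and 0 of all 22519, in each comparison. In homozygotes against wild type, 2 member probe sets had an unadjusted p under 0.05, against 3.8% of all. Without wild type 2 the count was 7 of 22 (2155 of 22519 in all), without wild type 1 it was 1 and without homozygote 2 it was 0. In the full set they were the second Itga3 probe set (-0.95, SE 0.28, limma adjusted p = 0.973) and an Itgav probe set (-0.75, SE 0.25, limma adjusted p = 0.973). The Itga3 probe set passed the filter only through the other genotypes, so nothing is read from its direction. Without the filter its unadjusted p in limma was 0.0343. That Itgav probe set lay at 5.09 and 5.15 in homozygotes, 4.61 and 5.04 in heterozygotes and 5.98 and 5.75 in wild type. The brightest Itgav probe set, with wild type 2 below homozygote 2, differed by -0.27 (SE 0.31) in the same comparison. The median of the 22 was -0.27, with 17 lower, but several of them measure the same gene. By leading probe set 5 genes were higher and 5 lower, with a median of -0.12. Over all 22519 tested probe sets 10790 were higher, with a median of -0.016.

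Homozygotes against heterozygotes gave 13 higher and 9 lower of 22, with a median of 0.07. By leading probe set 7 genes were higher and 3 lower, and of all 22519 tested probe sets 11113 were higher. The second Itga9 probe set was the 1 member with an unadjusted p under 0.05 (-0.58, SE 0.24), against 2.17% of all. That difference was -0.48 without homozygote 1 and -0.67 without homozygote 2. This probe set passed the filter only through the other genotypes, so nothing is read from its direction. Without the filter its unadjusted p in limma was 0.0995. With a covariate for sex-linked genes the count of members with an unadjusted p under 0.05 was 6 of 22, and it was 1907 of 22519 in all. Here and for heterozygotes against wild type, that covariate rests mainly on the gap between the wild-type arrays. Heterozygotes against wild type gave 14 lower of 22, with a median of -0.25. By leading probe set 4 genes were higher and 6 lower, and of all 22519 tested probe sets 11008 were higher. In limma 2 member probe sets had an unadjusted p under 0.05, against 5.26% of all. Without wild type 2 the count was 8 of 22 (2719 of 22519 in all), without heterozygote 1 it was 1, and with the covariate for sex-linked genes it was 9 (3082 of 22519 in all). In the full set these were the second Itga5 probe set described above and the same Itgav probe set (-1.04, SE 0.25, limma adjusted p = 0.838), which was at -0.93 without wild type 1. The comparisons share arrays, so their values are not independent of each other.

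Of 16 other integrin subunits listed, 14 were measured by a probe set with 1 symbol, 6 of these lay above background and 5 were tested, with 0 called. Itgb2, the beta subunit of leukocyte integrins, lay at 7.75 and 6.61 in homozygotes, 5.64 and 5.65 in heterozygotes and 5.43 and 6.80 in wild type, a difference of 1.30 (SE 0.47, limma adjusted p = 1). Homozygote 1 was its highest array and wild type 1 its lowest, as for the macrophage marker sums, a list that includes Itgb2, and the part of macrophages in this value was not tested. Itga7, a laminin receptor subunit of muscle, differed by -0.26 (SE 0.30), the platelet subunit Itga2b by 0.06 (SE 0.21) and Itgb8, which pairs with alpha v to release latent TGF-beta, by 0.06 (SE 0.35). Itgb6, Itgb4, Itga2, Itga10, Itgal, Itgax, Itgae and Itgb7 lay below the background level on average.

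Matrix and cell-surface ligands of integrins were measured for 34 of 36 genes listed, and 27 were tested, with 12 higher and 15 lower in homozygotes, a median of -0.02 and 0 called. Fn1, the fibronectin gene, lay at 13.20 and 13.20 in homozygotes, 13.28 and 13.34 in heterozygotes and 13.18 and 13.31 in wild type, and Vtn, the vitronectin gene, was below background. Those with the smallest p were the laminin chain Lama5 (-0.60, SE 0.28), the matrix proteins Postn (0.53, SE 0.26) and Ltbp1 (-0.49, SE 0.25), and the bridging protein Mfge8 (-0.30, SE 0.21), each with limma adjusted p = 1.

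Regulators of integrin activity and traffic were tested for 32 of 33 genes listed, with 14 higher and 18 lower, a median of -0.05 and 0 called. The kindlin of fibroblasts, Fermt2, lay at 10.38 and 10.59 in homozygotes, 10.15 and 10.84 in heterozygotes and 11.36 and 10.38 in wild type, with wild type 1 highest as for Itgb1. The kindlin of blood cells, Fermt3, had the smallest p, at 7.92 and 7.35 in homozygotes, 6.52 and 6.23 in heterozygotes and 5.81 and 7.33 in wild type (difference 1.16, SE 0.44, limma adjusted p = 1). As for Itgb2, wild type 1, the array with the lowest macrophage sum, was its lowest and homozygote 1 its highest. The endocytic adaptor Dab2 differed by 0.53 (SE 0.27), the tetraspanin Cd9 by 0.36 (SE 0.22) and filamin A (Flna), which binds beta tails, by -0.33 (SE 0.23).

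The 3 members with the largest range were compared with all other genes by the mean absolute distance between centred log2 profiles over the 6 arrays. For Itga6 the closest were Dusp10 (0.07), a phosphatase of stress kinases, the kinase Hipk2 (0.10) and Lratd2 (0.10). For Itga5 they were Crim1 (0.06), a membrane protein that binds growth factors of the BMP family, the sphingomyelin synthase Sgms2 (0.07) and Pik3cb (0.10), a catalytic subunit of PI 3-kinase. All 6 had their highest level in wild type 1. For Itgb3 they were Prc1 (0.05), a protein of the mitotic spindle midzone, Arhgap11a (0.06) and the kinase Melk (0.08), which were highest in homozygote 1 and lowest in wild type 2, as Itgb3 was. Genes chosen for a small distance share the highest and lowest arrays of the member largely through that choice. The distances rest on 6 arrays and are a description.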

How the data were processed

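Total RNA of 6 fibroblast cultures was hybridized as biotin-labelled cRNA to Affymetrix mouse arrays, per the labels' protocols. The deposited values were 1 linear intensity for each of 45101 probe sets per array. How probes were summarized and arrays scaled before deposit is stated neither in the labels nor in the file.

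Intensities were read as linear, since all were above 0 and reached between 15930 and 17154. Values became log2(intensity + 1.78), the pseudocount being the 10th percentile. Array medians of log2 values spanned 0.29, above the limit of 0.1, so arrays were quantile normalized. The 64 controls were dropped and the upper 50% by mean level (4.57 or higher) tested. A fold change on this scale understates dim probe sets.

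Symbols came from a platform annotation updated through Entrez identifiers to GRCm38.p6; 34945 probe sets had 1 symbol, 932 several and 9160 none. Differences were tested with limma 3.58.1 in R 4.3.3 over all 6 arrays with 1 mean per genotype (3 residual and 3.28 prior degrees of freedom) and Benjamini-Hochberg adjustment over 22519 probe sets. The fit was checked on simulated data. P-values reflect variation among embryos, each grown as 1 culture. Members and lists were chosen with earlier results of these data known. Other genes were named by smallest p in each list (up to 4), and 3 nearest profiles for each of the 3 members with the largest range; Fn1, Vtn and Fermt2 were named after their values were seen. Itga11, Itgad, Spp1, Fbn1 and Fermt1 were not analysed here.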

Additional observations from a re-analysis of the deposited data

How the results depend on the processing

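Under 14 or 15 alternatives per subunit in the comparison of homozygotes with both other genotypes, 0 member probe sets were called by limma, and likewise between single genotypes. Over all probe sets 0 were called in the standard setting, and without wild type 2 there were 2 for homozygotes against both (range over arrays left out 0 to 2). For homozygotes against heterozygotes there were 3 without wild type 1 and 2 without wild type 2 (range 0 to 3), and for heterozygotes against wild type 3 without wild type 1 (range 0 to 3) and 1 with the covariate for sex-linked genes. All calls with an array left out fell on the Y-linked Eif2s3y, on Kdm5d or on a probe set without a symbol. Without wild type 1 these differed by 7.21, 5.96 and 5.01 for homozygotes against heterozygotes. For heterozygotes against wild type they differed by -6.90, -5.78 and -4.84 without that array. Genotype and sex-linked expression cannot be told apart in these calls. The call with the covariate was Egfl6 (7.47). Differences under single-array removal ranged from -0.57 to 0.22 for Itga3, -0.19 to 0.82 for Itga4, -0.60 to 0.13 for Itga6, -0.16 to 0.67 for Itga8, -0.18 to 0.22 for Itga9, -0.29 to 0.092 for Itgb1, -0.28 to 0.81 for Itgb3 and -0.28 to 0.078 for Itgb5, each crossing 0, and from -0.90 to -0.19 for Itga5 and -0.33 to -0.04 for Itgav, which did not. With the covariate, which rests mainly on the gap between the wild-type arrays, the sign turned for Itga3 (0.37), Itga5 (0.76), Itga6 (1.07), Itgav (0.37), Itgb1 (0.64) and Itga9 (-0.45), and 13 of 22 tested member probe sets were higher, against 7 without it. The sign also turned for Itga9 without quantile normalization (-0.0079) and for Itgav with averaged probe sets (0.20), where 6 of 10 subunits stayed in the tested range. The cause was not tested. Arrays sharing a replicate number did not deviate together (correlations of -0.14, -0.14 and -0.36 between genotypes), and with the number as a replicate block 0 members were called, with Itgb1 at -0.10. The low signal of Itga9, Itgb3 and the dimmer Itga3 and Itgav probe sets limits what their differences show.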
